A study of Mus musculus with 24 samples.

Results

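The 48 genes described here are the mouse genes of Wnt signalling at and outside the cell surface, together with the transcription factors at its nuclear end. They were chosen by name: 19 Wnt ligands (Wnt1 to Wnt16), 10 Frizzled receptors (Fzd1 to Fzd10), 10 secreted antagonists (Dkk1 to Dkk4, Sfrp1, Sfrp2, Sfrp4, Sfrp5, Frzb and Wif1), 4 TCF/LEF factors (Lef1, Tcf7, Tcf7l1 and Tcf7l2), 4 R-spondins (Rspo1 to Rspo4) and the feedback target Axin2. All 48 had a row among the 20633 transcript rows (19409 gene symbols) of the gene table, and for a symbol with several rows the row with the largest sum over the 12 libraries was taken. Transcription was measured by calibrated RNA-seq (cRNA-seq), in which Drosophila cells are mixed with the mouse cells before extraction so that libraries can be scaled to a common number of cells. The cells were mouse embryonic stem cells (ESCs) of strain E14, grown on gelatin in serum with leukemia inhibitory factor, and both lines carry a tamoxifen-inducible Cre (ERT2-Cre) at Rosa26. The PRC1CKO line (Ring1a-/-; Ring1bfl/fl; clone B9) lacks RING1A at all times and loses RING1B, and with it every PRC1 complex, when 4-hydroxytamoxifen (OHT) is given. The PRC1CPM line (clone 41) carries RING1A with the substitutions I50A and D53K at all times, and OHT switches wild-type RING1B to a form with I53A and D56K, so that PRC1 is kept without its catalytic activity. For each line, 3 libraries came from untreated cells and 3 from cells given 800 nM OHT for 72 h, so the untreated cells of both lines already lacked normal RING1A, and each line was a single clone. The comparisons ask what happens to these genes when PRC1 is removed, or when only its activity is removed, and whether the lines differ.

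As background, Wnt proteins are secreted, lipid-modified ligands that bind Frizzled receptors and the co-receptors LRP5 and LRP6. In the canonical branch, receptor engagement stops the destruction complex of Axin, APC and GSK3 from degrading beta-catenin, which then enters the nucleus and binds TCF/LEF factors. Some DKK proteins, DKK1 among them, block the co-receptors, whereas SFRP proteins (Frzb belongs to the same family) and WIF1 bind the ligands. R-spondins raise the number of receptors at the surface by withdrawing the ubiquitin ligases ZNRF3 and RNF43. Axin2 is a widely used direct target that feeds back on the pathway. In mouse ESCs canonical signalling helps to sustain self-renewal, and many Wnt genes belong to the developmental genes that Polycomb complexes hold silent.

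The libraries held 14668159 to 27016156 reads counted over genes. Values are normalised read counts, meaning reads over the whole gene body divided by the library's spike-in size factor, so 1 read was worth between 0.77 and 1.49 units. Values per kilobase of exon divide these same gene-body counts, introns included, by exon length, so they are not densities of exon reads. The size factors were not even. That of untreated PRC1CKO replicate 1 was 0.671 against 1.30 and 1.18 in the other untreated PRC1CKO libraries, and replicate 1 held the highest value of its condition for 89.1% of all tested rows in untreated PRC1CKO, 61.1% in OHT-treated PRC1CKO, 77.7% in untreated PRC1CPM and 84.8% in OHT-treated PRC1CPM. Replicate 1 libraries therefore stood apart, and the main counts below are also given without them. Of 9 ESC markers, 8 had rows, and their summed level was 78724 ± 17249 in untreated and 61076 ± 5072 in OHT-treated PRC1CKO, and 67642 ± 12135 and 63270.3 ± 18199 in PRC1CPM. This sum, led by Tdgf1, was therefore high before and after treatment. Rnf2, which encodes RING1B, had normalised read counts of 1756, 1436 and 1385 untreated and 1489, 1565 and 1585 after OHT in PRC1CKO. In PRC1CPM its values were 1850, 1659 and 1578 untreated and 1724, 1295 and 1513 after OHT. Ring1, which encodes RING1A, had between 166 and 313 normalised reads in PRC1CKO and between 111 and 182 in PRC1CPM. Reads were counted over whole gene bodies, which include sequence outside the altered exons, so these values do not check the genotypes.

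RefSeq sequence around the start of the gene was found for 34 of the 48 genes, in windows of 300 bases (250 before the start and 50 after it) on GRCm38 (mm10). Polycomb complexes are known to gather at CpG islands, so the CpG dinucleotides at the starts are shown, in capitals, for 5 genes whose changes are described below: Wnt9b and its neighbour Wnt3, which rose, Fzd5 and Fzd7, which fell, and Axin2. Each sequence is the 250 bases before the start, 5′ to 3′ on the strand of the gene.
Wnt9b (chr11:103749822-103750071, minus strand): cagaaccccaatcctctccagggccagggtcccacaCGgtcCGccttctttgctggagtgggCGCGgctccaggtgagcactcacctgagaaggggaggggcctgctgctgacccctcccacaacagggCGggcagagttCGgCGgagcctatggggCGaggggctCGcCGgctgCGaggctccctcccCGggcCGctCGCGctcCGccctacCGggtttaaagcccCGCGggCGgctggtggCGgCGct
Wnt3 (chr11:103773925-103774174, plus strand): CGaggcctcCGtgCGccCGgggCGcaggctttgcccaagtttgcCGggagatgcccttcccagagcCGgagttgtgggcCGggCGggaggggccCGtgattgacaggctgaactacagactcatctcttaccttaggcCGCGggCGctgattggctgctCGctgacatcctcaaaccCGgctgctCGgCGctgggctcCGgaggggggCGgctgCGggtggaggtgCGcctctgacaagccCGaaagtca
Fzd5 (chr1:64737751-64738000, minus strand): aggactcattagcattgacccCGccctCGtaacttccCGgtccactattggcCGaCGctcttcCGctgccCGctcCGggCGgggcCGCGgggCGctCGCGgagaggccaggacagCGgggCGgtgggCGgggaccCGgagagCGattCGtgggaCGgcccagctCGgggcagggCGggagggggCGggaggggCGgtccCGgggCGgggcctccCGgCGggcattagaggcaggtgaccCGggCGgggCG
Fzd7 (chr1:59481897-59482146, plus strand): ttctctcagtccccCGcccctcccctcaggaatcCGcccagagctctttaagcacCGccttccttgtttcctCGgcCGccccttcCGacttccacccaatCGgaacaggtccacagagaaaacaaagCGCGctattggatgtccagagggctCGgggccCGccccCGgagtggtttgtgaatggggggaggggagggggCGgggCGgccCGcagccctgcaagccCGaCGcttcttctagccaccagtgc
Axin2 (chr11:108920099-108920348, plus strand): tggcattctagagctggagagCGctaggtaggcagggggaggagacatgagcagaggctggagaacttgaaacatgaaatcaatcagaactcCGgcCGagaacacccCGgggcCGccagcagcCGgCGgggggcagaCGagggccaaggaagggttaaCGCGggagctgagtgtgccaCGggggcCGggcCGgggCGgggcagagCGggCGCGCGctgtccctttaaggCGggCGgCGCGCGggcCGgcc
These stretches held 22 (Wnt9b), 22 (Wnt3), 32 (Fzd5), 17 (Fzd7) and 24 (Axin2) CpG dinucleotides, and the window of 300 bases of each held more CpG dinucleotides than at least 80.0% of all RefSeq windows, whether the gene rose or fell. Over the windows of 300 bases, the median was 29 CpG dinucleotides for the 34 genes and 7 for all 32851 RefSeq windows, and the median GC content was 70.0% against 52.7%. By role, the median was 31 for the 15 ligands with a window, 35 for 6 Frizzled receptors, 26 for the TCF/LEF factors and 17.5 for 6 secreted antagonists. Wnt9a held 58 CpG dinucleotides, more than 99.9% of all windows, whereas Wnt8b held 6 and Wnt16 held 10. The letters CTTTGAA and CTTTGAT, which stand for the core of a TCF/LEF motif and share their first 6 bases, were searched on both strands. They occurred in the windows of Wnt11 and Dkk1 alone, 5.88% of the 34 genes, against 8.65% of all windows. The TATA motif TATAAA, searched in the same way, occurred in 6 of the 34 windows (17.6%), namely Wnt11, Fzd1, Dkk1, Dkk2, Wif1 and Tcf7, against 13.6% of all windows. The windows of Wnt5a, Wnt7b, Wnt8a, Wnt10a, Fzd2, Fzd3, Fzd6, Fzd8, Dkk3, Dkk4, Sfrp1, Sfrp4, Rspo2 and Rspo3 were not analysed here.

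**Figure D1:**
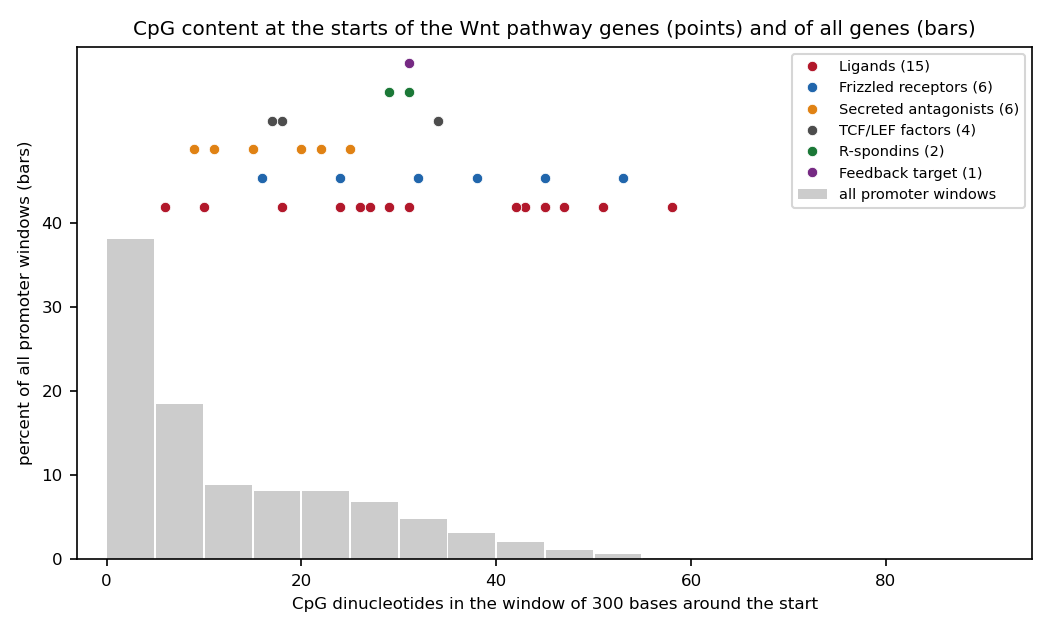
CpG dinucleotides in windows of 300 bases around the start of the gene. Bars give the percent of all 32851 RefSeq windows in steps of 5 CpG dinucleotides on the x axis, and each point is 1 of 34 Wnt pathway genes, in 1 row per role and with no meaning to the height. The median is 29 for these genes and 7 for all windows, which were not reduced to 1 per gene.

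After OHT, most ligands and R-spondins rose in both lines, the Frizzled receptors divided, and the TCF/LEF factors did not pass the test. A gene was tested where 3 or more libraries held 10 or more of its reads. Of the 46 genes tested, 28 were called higher and 2 lower in PRC1CKO, where a call is an adjusted p under 0.05 in limma with Benjamini-Hochberg adjustment and a fold change above 1.5. Log2 fold changes are on log2(normalised read count + 1) and are given with their SE. Over all 16940 rows tested in that line, 16.5% were called higher and 3.09% lower. In PRC1CPM, 25 of the 46 genes were called higher and 1 lower, against 13.1% and 1.4% of all rows. The 25 higher and the 1 lower in PRC1CPM were all called in the same direction in PRC1CKO. Blocking on the replicate number gave 30 higher and 2 lower in PRC1CPM (17.9% and 2.72% of all rows), since Wnt4, Wnt8b, Wnt16, Fzd8 and Rspo4 were added to the higher and Sfrp4 to the lower ones. In PRC1CKO (20.3% and 4.86% of all rows) the block added Dkk1, Lef1, Rspo4 and Wnt16 to the higher and Sfrp4 to the lower ones. With replicate 1 of all 4 conditions left out, 29 genes were higher and 1 lower in PRC1CKO (19.7% and 2.15% of all rows), and 25 were higher and 1 lower in PRC1CPM (11.8% and 1.63%). Wnt1 and Dkk4 had too few reads to be tested. The samples are bulk cultures, so a gene transcribed in more cells and a gene transcribed more in each cell cannot be told apart.

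**Figure D2:**
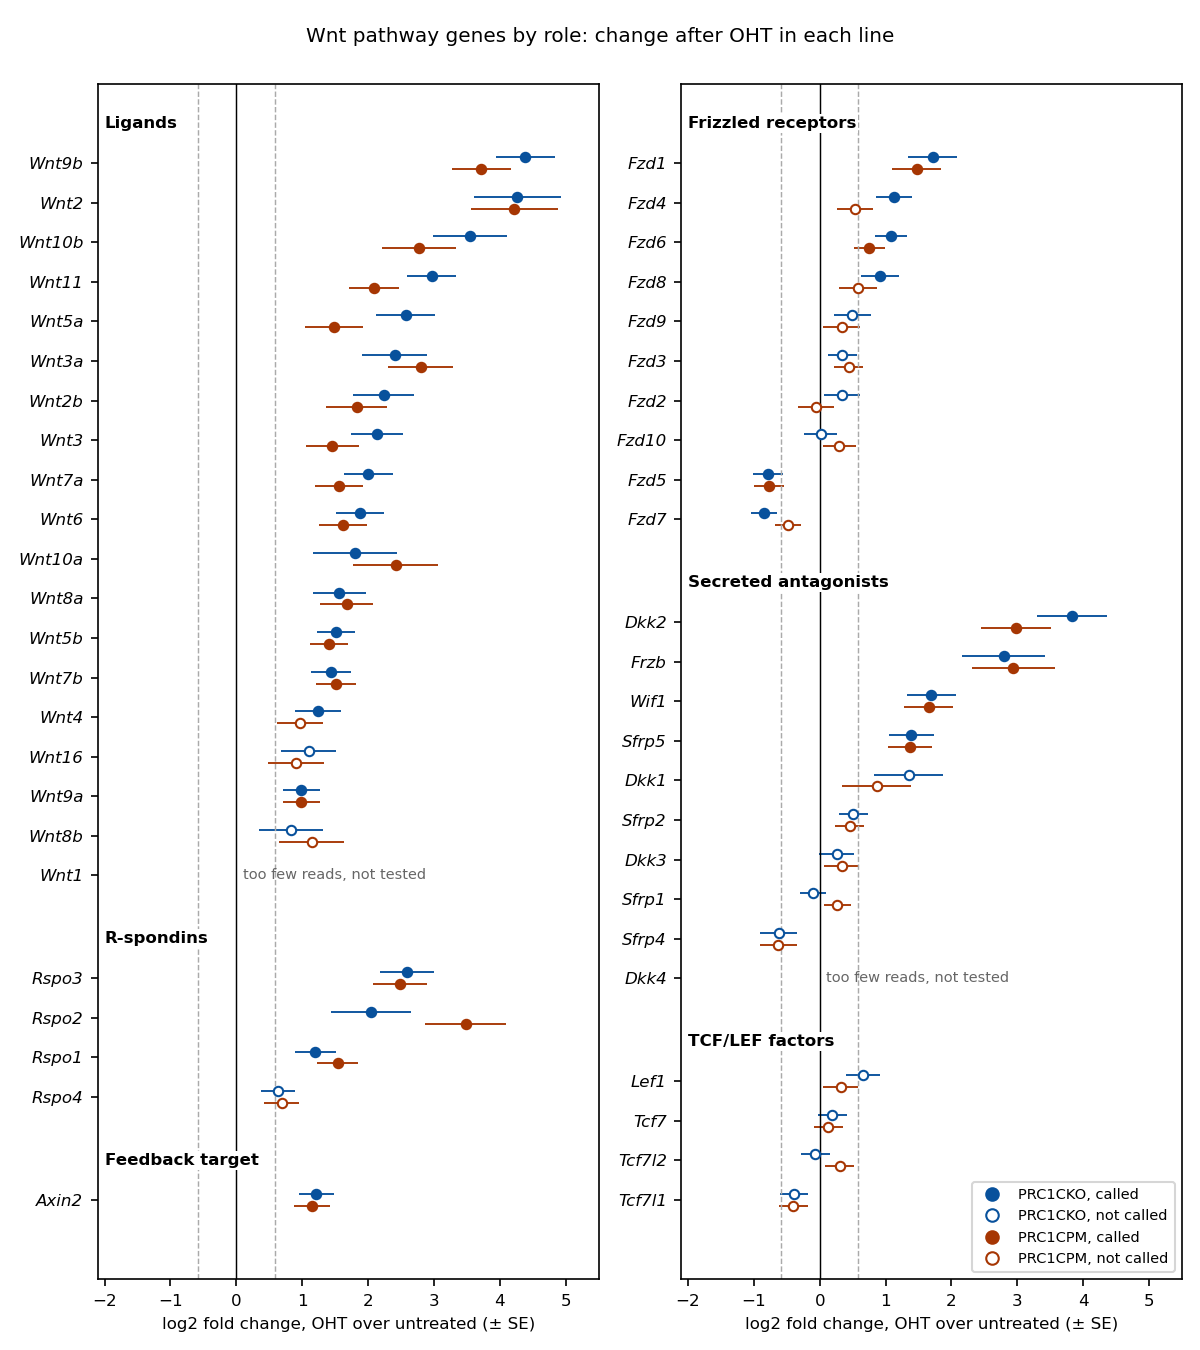
Log2 fold change on log2(normalised read count + 1) after OHT for each gene, grouped by role and ordered within it by the change in PRC1CKO. Points are limma estimates from 3 libraries per condition with their SE, blue for PRC1CKO and red-brown for PRC1CPM, filled where called, and dashed lines mark a fold change of 1.5. All 18 tested ligands lie above 0 in both lines, and Fzd5 and Fzd7 lie below it.

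By role, the median log2 fold change over every member, tested or not, was 2.00 ± 0.23 in PRC1CKO and 1.62 ± 0.50 in PRC1CPM for the ligands (SD over the 3 OHT-treated libraries, each taken against the mean of the untreated ones). It was 1.62 ± 0.28 and 2.01 ± 0.41 for the R-spondins, 0.93 ± 0.07 and 0.66 ± 0.73 for the secreted antagonists, and 0.42 ± 0.07 and 0.39 ± 0.32 for the Frizzled receptors. These SDs leave out the spread of the untreated libraries. Without untreated PRC1CKO replicate 3 the PRC1CKO median of the antagonists was 0.53, and without untreated PRC1CKO replicate 1 that of the Frizzled receptors was 0.67. For the TCF/LEF factors the median was 0.06 ± 0.22 and 0.22 ± 0.33. The median over all rows of the table was 0.09 in PRC1CKO and 0.08 in PRC1CPM.

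Summed levels give the same classes weighted by abundance. Per kilobase of gene body, the 19 ligands together had 46.8 ± 26.1 normalised reads in untreated PRC1CKO and 151 ± 35.7 after OHT, a ratio of 3.23 ± 0.76 (SD, n = 3). In PRC1CPM the same sum went from 56.5 ± 22.0 to 163 ± 48.2, a ratio of 2.89 ± 0.85. The 10 Frizzled receptors summed to far more, 2765 ± 516 normalised reads per kilobase in untreated and 1972 ± 36.2 in OHT-treated PRC1CKO, and the libraries did not overlap. In PRC1CPM the Frizzled sum was 2085 ± 362 untreated and 1760.0 ± 352 after OHT, and the libraries overlapped. Between libraries of the same replicate number it was lower after OHT each time (2451 to 2122, 1728 to 1418 and 2077 to 1741). The secreted antagonists summed to 354 ± 64.8 untreated and 456 ± 36.6 after OHT in PRC1CKO, and to 319 ± 22.3 and 426 ± 50.7 in PRC1CPM. The R-spondin sum had a ratio of 1.94 ± 0.06 in PRC1CKO and 2.17 ± 0.33 in PRC1CPM. These sums were not tested. The SDs of the ratios are over the 3 OHT-treated libraries and leave out the spread of the untreated ones. The sum of the TCF/LEF factors had ratios of 1.02 ± 0.14 and 1.04 ± 0.19, within the spread between libraries.

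**Figure D3:**
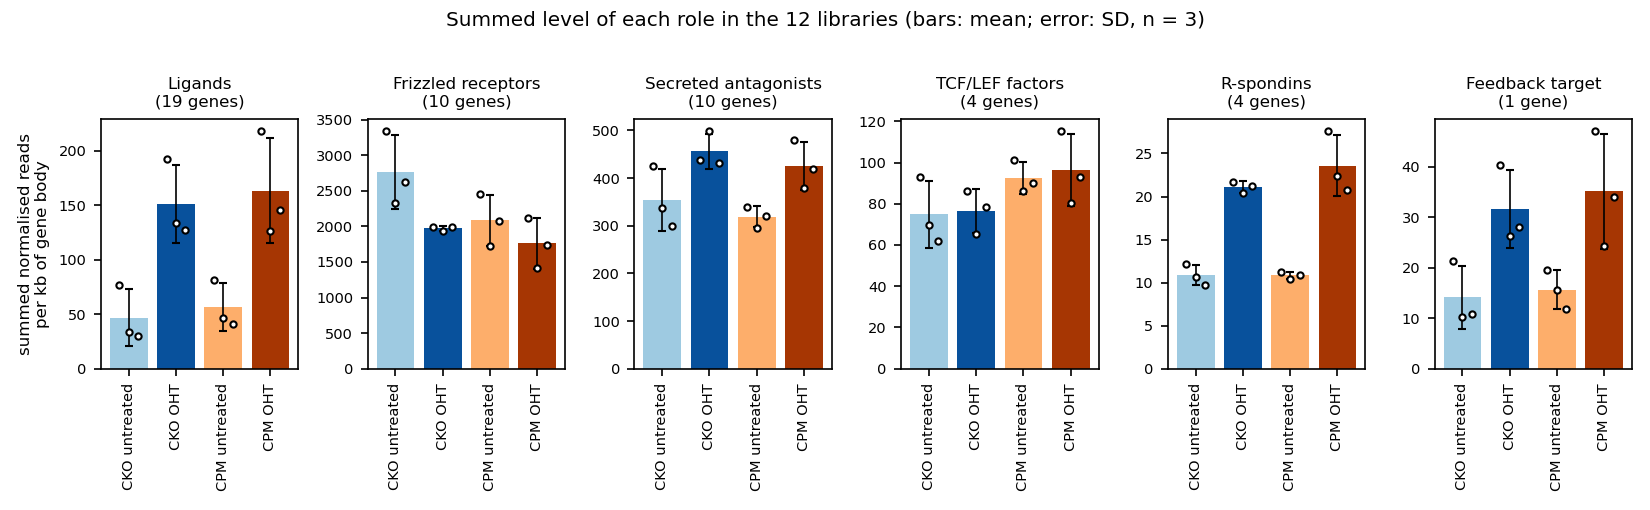
Summed normalised reads per kilobase of gene body for each role. Bars are means of 3 libraries with their SD, open points are the libraries in the order of replicates 1 to 3, and each panel has its own y axis from 0. The mean ligand sum is 46.8 untreated and 151 after OHT in PRC1CKO and 56.5 and 163 in PRC1CPM, and the Frizzled sum is 2765 and 1972 in PRC1CKO.

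Ligands. Of the 18 ligands tested, 16 (against 16.5% of all rows) were called higher in PRC1CKO and 15 (13.1%) in PRC1CPM, and none was called lower. All 18 had a log2 fold change above 0 in each line, from 0.83 to 4.39 in PRC1CKO and from 0.91 to 4.22 in PRC1CPM. Over all rows tested, 61.1% lay above 0 in PRC1CKO and 62% in PRC1CPM. Every OHT-treated library lay above every untreated one for 17 of the 19 ligands in PRC1CKO (all but Wnt4 and Wnt8a) and 16 in PRC1CPM (all but Wnt3, Wnt5a and Wnt16), against 22.1% and 18.7% of all tested rows. Wnt9b, a ligand known for inducing the tubules of the kidney, had the highest fitted value in PRC1CKO at the pseudocount of 1 used here, but Wnt2 lay above it with a pseudocount of 0.1 (6.64 against 4.65). In PRC1CKO its normalised read counts were 2.98, 9.23 and 3.38 untreated and 162, 131 and 75.0 after OHT. In PRC1CPM they were 10.2, 18.8 and 8.13 untreated and 191, 142 and 169 after OHT. All OHT-treated libraries were far above the highest untreated one, and the log2 fold change was 4.39 ± 0.45 (adjusted p = 3.05e-11) in PRC1CKO and 3.72 ± 0.45 (adjusted p = 7.6e-09) in PRC1CPM. Wnt3, which lies 24.353 kb from Wnt9b on the opposite strand of chromosome 11 and is needed for the primitive streak, had log2 fold changes of 2.14 ± 0.40 (adjusted p = 3.35e-05) and 1.46 ± 0.40 (adjusted p = 0.00684). DESeq2 called Wnt3 in neither line, and without untreated PRC1CPM replicate 3 its PRC1CPM value was 0.94, not called.

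Wnt2, a ligand of lung and placental development, was nearly silent in untreated cells. Its normalised read counts in PRC1CKO were 0, 1.54 and 0 untreated and 30.7, 31.5 and 16.6 after OHT. PRC1CPM libraries gave 0, 5.65 and 2.71 untreated and 71.4, 33.2 and 63.5 after OHT. The groups did not overlap in either line. In PRC1CKO the untreated libraries held 2 reads in all against 87 after OHT, a ratio of 41.2 with an exact 95% counting interval of 11.1 to 345, which covers counting error only. The fitted log2 fold changes were 4.27 ± 0.66 (adjusted p = 1.06e-06) and 4.22 ± 0.66 (adjusted p = 2.95e-06), and with a pseudocount of 0.1 the PRC1CKO value was 6.64. Wnt10b, known for its part in bone and fat formation, had the next highest fitted value in PRC1CKO. Counts in PRC1CKO were 8.94, 1.54 and 3.38 untreated and 85.0, 53.7 and 36.6 after OHT. For PRC1CPM they were 15.3, 3.77 and 4.07 untreated and 82.0, 38.7 and 37.2 after OHT. The OHT-treated libraries again all lay above the untreated ones, with log2 fold changes of 3.55 ± 0.56 (adjusted p = 1.33e-06) and 2.77 ± 0.56 (adjusted p = 0.000178). Wnt1, which lies 11.706 kb from Wnt10b on chromosome 15 and patterns the midbrain, had no read in any untreated library and 20 reads in OHT-treated PRC1CKO and 31 in OHT-treated PRC1CPM. Against a floor of 3 reads over the 3 untreated libraries, it was at least 6.31-fold higher in PRC1CKO and at least 8.23-fold higher in PRC1CPM, and a fit with no filter on low counts called it higher in both.

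Among ligands, Wnt8a and Wnt9a had the most reads per kilobase of gene body in untreated PRC1CKO, at 10.7 and 6.37. With the same gene-body counts divided by exon length Wnt5b and Wnt7b had the most, at 73.1 and 55.7. The gene body of Wnt5b spans 111.8 kb with 2117 exon bases, so the order depends on the length used. Wnt8a belongs to early mesoderm patterning. Its normalised read counts in PRC1CKO ran 112, 54.6 and 17.8 untreated and 212, 110.1 and 127 after OHT. In the PRC1CPM libraries they ran 60.1, 46.2 and 44.7 untreated and 194, 129 and 169.8 after OHT. The PRC1CKO groups met, since untreated replicate 1 lay above OHT-treated replicate 2, and without untreated replicate 3 the call was lost (log2 fold change 0.87). The log2 fold changes were 1.56 ± 0.40 (adjusted p = 0.00257) in PRC1CKO and 1.68 ± 0.40 (adjusted p = 0.00167) in PRC1CPM. Wnt9a, involved in joint formation, moved least among the called ligands. In PRC1CKO it had 235, 142 and 132 untreated and 383, 322 and 279 after OHT. PRC1CPM held 311, 236 and 179 untreated and 569.5, 394 and 458 after OHT. The groups did not overlap and the log2 fold changes were 0.99 ± 0.28 (adjusted p = 0.0075) and 0.99 ± 0.28 (adjusted p = 0.01). Wnt9a lies 16.178 kb from Wnt3a, which maintains axial progenitors and had log2 fold changes of 2.40 ± 0.50 (adjusted p = 0.000174) and 2.80 ± 0.50 (adjusted p = 2.83e-05).

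The other called ligands were Wnt2b, Wnt5a, Wnt5b, Wnt6, Wnt7a, Wnt7b, Wnt10a and Wnt11 in both lines and Wnt4 in PRC1CKO. Wnt11 and Wnt5a, the principal noncanonical ligands, had log2 fold changes of 2.97 ± 0.38 and 2.57 ± 0.44 in PRC1CKO and of 2.09 ± 0.38 and 1.48 ± 0.44 in PRC1CPM. Wnt6 and Wnt10a, which lie 6.699 kb apart on chromosome 1, had 1.88 ± 0.37 and 1.81 ± 0.64 in PRC1CKO and 1.62 ± 0.37 and 2.42 ± 0.64 in PRC1CPM. Wnt4, which acts in kidney and gonad, missed the threshold in PRC1CPM with a log2 fold change of 0.96 ± 0.35 (adjusted p = 0.0568), although its OHT-treated libraries all lay above the untreated ones there. It was called higher in PRC1CPM under TMM scaling, without the gDNA-seq correction, in the fit of that line alone, with replicate 1 of all conditions left out, and in 4 of the 12 fits that left out 1 library (untreated PRC1CKO replicate 1 or 2, OHT-treated PRC1CKO replicate 1 or untreated PRC1CPM replicate 1). Wnt16 had log2 fold changes of 1.10 ± 0.42 (adjusted p = 0.0592) and 0.91 ± 0.42 (adjusted p = 0.174), and Wnt8b 0.83 ± 0.49 (adjusted p = 0.284) and 1.14 ± 0.49 (adjusted p = 0.126), so these 2 passed in neither line as tested. Wnt16 was called higher in PRC1CKO in the fit of that line alone and in 5 of 12 fits that left out 1 library (untreated PRC1CKO replicate 1 or 3, OHT-treated PRC1CKO replicate 2, or untreated PRC1CPM replicate 1 or 2), and in PRC1CPM without untreated replicate 1 or without the gDNA-seq correction. Wnt8b was called higher in PRC1CPM under TMM scaling. With a block on the replicate number, Wnt16 was called higher in both lines, and Wnt4 and Wnt8b in PRC1CPM. Several of the ligand calls were lost when 1 library was left out. In PRC1CKO, Wnt4 and Wnt9a were not called without untreated replicate 3 or OHT-treated replicate 1, and Wnt10a without either of those, untreated replicate 2, OHT-treated replicate 2 or OHT-treated PRC1CPM replicate 2. In PRC1CPM, Wnt3, Wnt5a and Wnt9a were not called without untreated replicate 3 or OHT-treated replicate 1, Wnt10a without untreated replicate 3 and Wnt2b without OHT-treated replicate 1. Without untreated replicate 3, the PRC1CPM log2 fold changes were 0.82 for Wnt5a and 1.36 for Wnt10a. Some values moved less. Wnt9a in PRC1CKO had 0.83 without untreated replicate 3 and 0.87 without OHT-treated replicate 1. Wnt2b in PRC1CPM had 1.52 without OHT-treated replicate 1. Other settings also ended calls: Wnt5a in PRC1CPM was not called by DESeq2, under TMM scaling or with no filter on low counts, and Wnt3 in PRC1CPM not with no filter. In PRC1CKO, Wnt10a was not called under TMM scaling, with no filter, with a pseudocount of 0.1 or with replicate 1 of all conditions left out, and Wnt9a not without the gDNA-seq correction. The gene body of Wnt5b shares 4219 bases with Fbxl14 on the opposite strand, and the sources used here do not state whether the strand was used in counting.

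**Figure D4:**
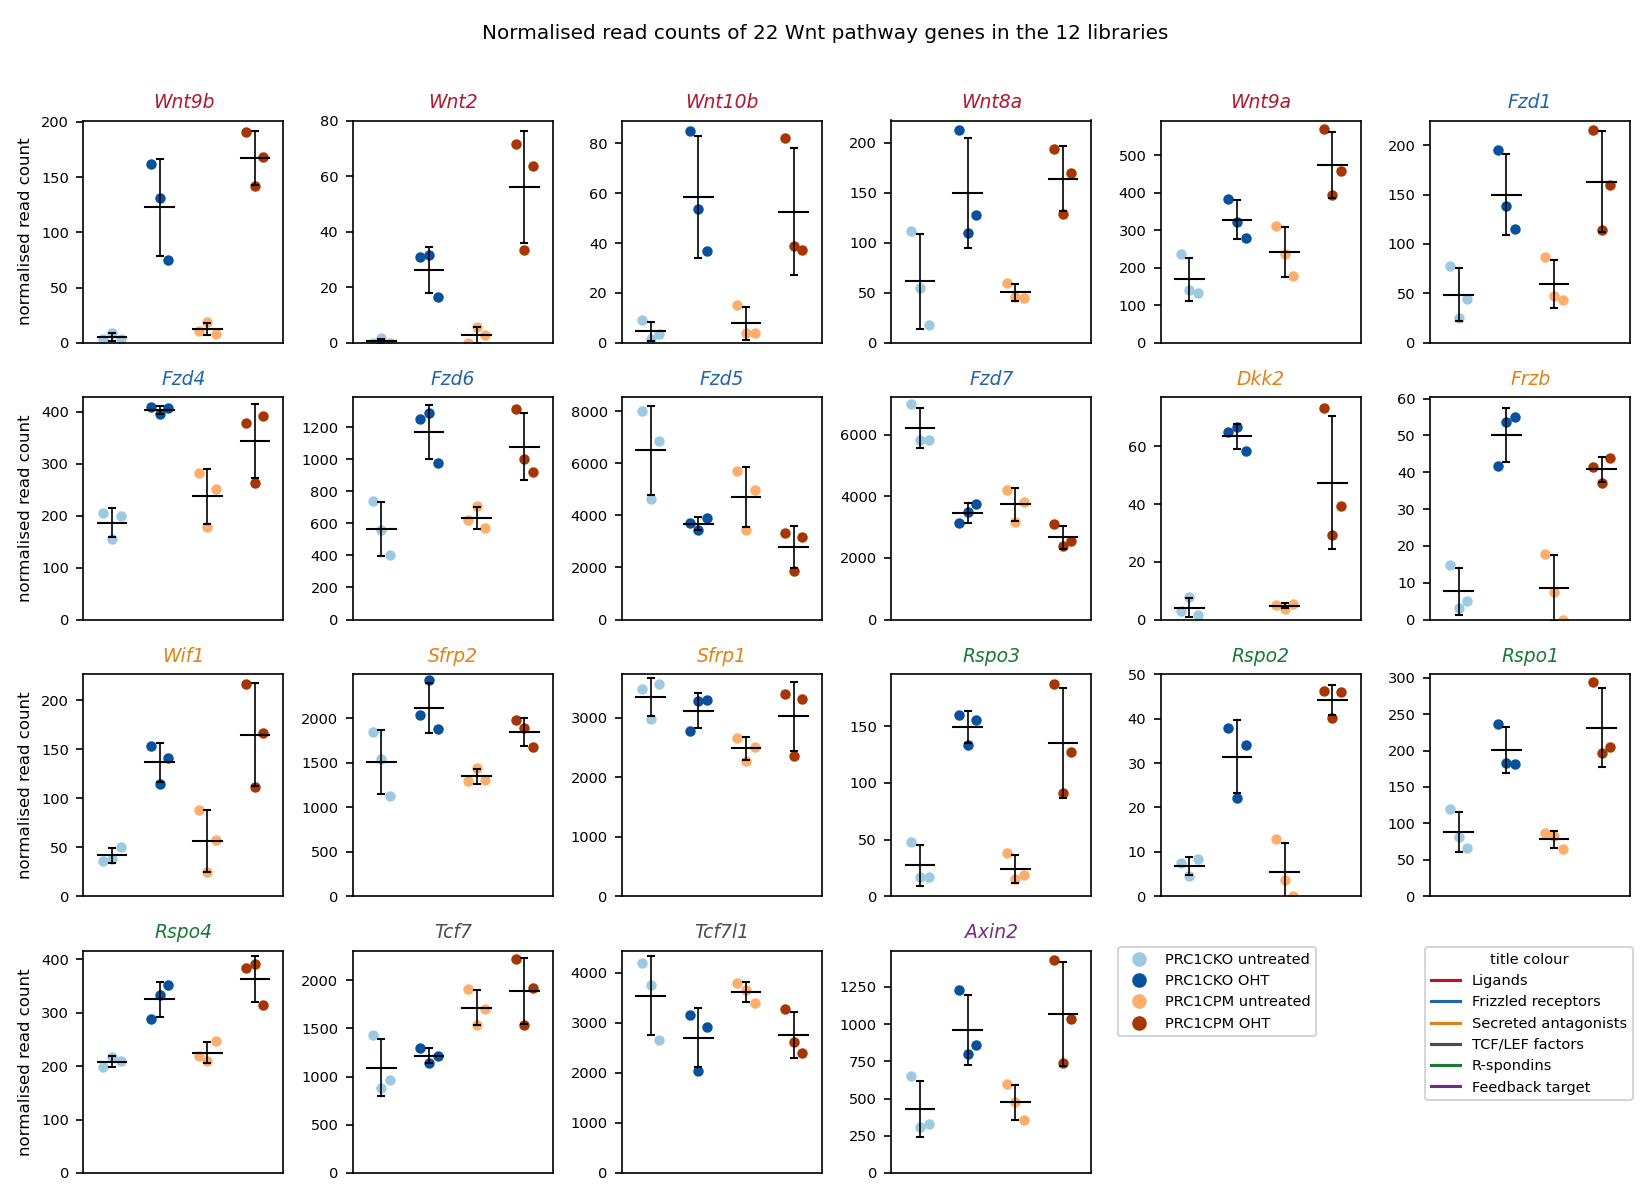
Normalised read counts of 22 genes in the 12 libraries. Points are libraries in the order of replicates 1 to 3, black lines are means with SD (n = 3), each panel has its own y axis from 0, and the colour of the title gives the role. Ligands such as Wnt9b, Wnt2 and Wnt10b are near 0 untreated and higher after OHT in both lines, whereas Fzd5 and Fzd7 are lower after OHT.

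R-spondins. Of the 4 R-spondins, Rspo1, Rspo2 and Rspo3 were called higher in both lines, and the groups did not overlap for any of the 4. Over all rows tested, 16.5% were called higher in PRC1CKO and 13.1% in PRC1CPM. Every OHT-treated library lay above every untreated one for 22.1% and 18.7% of all tested rows. Rspo3, a regulator of vessel and placenta development, rose most in PRC1CKO. Its normalised read counts there were 47.7, 16.9 and 16.9 untreated and 160.0, 133 and 155 after OHT. In PRC1CPM they came to 38.4, 15.1 and 19.0 untreated and 187, 91.2 and 127 after OHT. The log2 fold changes were 2.59 ± 0.41 (adjusted p = 1.47e-06) and 2.49 ± 0.41 (adjusted p = 6.73e-06). Rspo2 acts in limb and lung. PRC1CKO had 7.45, 4.62 and 8.46 untreated and 38.0, 22.2 and 34.0 after OHT. PRC1CPM had 12.8, 3.77 and 0 untreated and 46.3, 40.2 and 46.0 after OHT. The untreated libraries of PRC1CPM spread from 0 to 12.8 and all OHT-treated ones lay above them. Its log2 fold changes were 2.05 ± 0.61 (adjusted p = 0.0103) and 3.48 ± 0.61 (adjusted p = 2.04e-05), and in PRC1CKO it did not pass with replicate 1 of all conditions left out or with a pseudocount of 0.1. Rspo1, known from ovary differentiation, and Rspo4, known from nail growth, had the most reads per kilobase of gene body of this class in untreated PRC1CKO, at 3.91 and 6.57. Rspo1 had in PRC1CKO 119, 80.8 and 66.0 untreated and 237, 183 and 181 after OHT. Rspo1 had in PRC1CPM 86.9, 82.9 and 65.1 untreated and 293, 196 and 205 after OHT. The log2 fold changes of Rspo1 were 1.20 ± 0.32 (adjusted p = 0.0032) and 1.54 ± 0.32 (adjusted p = 0.000225). Rspo4 counts in PRC1CKO were 198, 218 and 209.7 untreated and 288, 334 and 352 after OHT. Rspo4 counts in PRC1CPM were 219, 209 and 247 untreated and 383, 392 and 314 after OHT. Although no library of one group reached the other, Rspo4 did not pass in either line, with log2 fold changes of 0.63 ± 0.26 (adjusted p = 0.0888) and 0.69 ± 0.26 (adjusted p = 0.0754) in limma. DESeq2 called it higher in both lines, as did limma in PRC1CKO with replicate 1 of all conditions left out and in PRC1CPM without untreated PRC1CKO replicate 1 or without the gDNA-seq correction. With a block on the replicate number, limma called Rspo4 higher in both lines.

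Frizzled receptors. This class divided: Fzd1, Fzd4, Fzd6 and Fzd8 were called higher and Fzd5 and Fzd7 lower in PRC1CKO, and Fzd1 and Fzd6 higher and Fzd5 lower in PRC1CPM. Over all rows tested, 16.5% were called higher and 3.09% lower in PRC1CKO, and 13.1% and 1.4% in PRC1CPM. Fzd5 and Fzd7, the 2 receptors that fell, were the most abundant. Fzd7, the receptor most often tied to Wnt signalling in ESCs, had 1292 ± 138 normalised reads per kilobase of gene body in untreated PRC1CKO, and Fzd5, which acts in eye and yolk sac development, had 905 ± 239, against 243 ± 80.7 for Fzd10, the next. Fzd7 had normalised read counts in PRC1CKO of 6980.1, 5827 and 5835 untreated and 3119, 3480.3 and 3755 after OHT. In PRC1CPM it had 4218, 3168 and 3819.9 untreated and 3089, 2381 and 2550.1 after OHT. Every OHT-treated library lay below every untreated one in each line, as for 8.52% of all rows in PRC1CKO and 3.7% in PRC1CPM, the log2 fold change was -0.85 ± 0.20 (adjusted p = 0.000998) in PRC1CKO, and in PRC1CPM it was -0.48 ± 0.20 (adjusted p = 0.11), which did not pass except under TMM scaling. Fzd5 had in PRC1CKO 8024, 4637 and 6859 untreated and 3722, 3423 and 3900.2 after OHT. Fzd5 had in PRC1CPM 5697, 3438 and 4992 untreated and 3343, 1861 and 3154 after OHT. The groups did not overlap in either line, with log2 fold changes of -0.79 ± 0.22 (adjusted p = 0.00722) and -0.77 ± 0.22 (adjusted p = 0.0115). The PRC1CPM call of Fzd5 was lost without untreated replicate 1, untreated replicate 3 or OHT-treated replicate 2 (-0.51 without the last), and the PRC1CKO call was lost with replicate 1 of all conditions left out. It was also lost in PRC1CPM without the gDNA-seq correction of the spike-in factors, a correction for how many Drosophila cells each sample received (-0.48 without it).

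Of the receptors that rose, Fzd1 changed most. Its normalised read counts in PRC1CKO stood at 77.5, 24.6 and 44.0 untreated and 195, 139 and 115 after OHT. In PRC1CPM they stood at 86.9, 47.1 and 43.4 untreated and 215, 114 and 159.9 after OHT. The groups did not overlap, and the log2 fold changes were 1.71 ± 0.38 (adjusted p = 0.00037) and 1.47 ± 0.38 (adjusted p = 0.00344). Fzd4, a receptor for the non-Wnt ligand Norrin in retinal vessels, was called in PRC1CKO. PRC1CKO libraries held 206, 155 and 199.6 untreated and 409, 395 and 407 after OHT. PRC1CPM libraries held 281, 177 and 252 untreated and 378, 262 and 391 after OHT. The OHT-treated PRC1CKO libraries were all above the untreated ones, whereas those of PRC1CPM overlapped, and the log2 fold changes were 1.12 ± 0.27 (adjusted p = 0.00141) and 0.54 ± 0.27 (adjusted p = 0.229). Fzd6, a planar polarity receptor, moved in both lines. It had in PRC1CKO 740.3, 556 and 404 untreated and 1247, 1287 and 978 after OHT. It had in PRC1CPM 619, 711 and 571 untreated and 1313, 999 and 920.1 after OHT. No library crossed between groups, with log2 fold changes of 1.08 ± 0.24 (adjusted p = 0.000458) and 0.75 ± 0.24 (adjusted p = 0.0229). Without untreated replicate 3 or OHT-treated replicate 1 of PRC1CPM, or with replicate 1 of all conditions left out, its call there was lost. Fzd8 had 0.91 ± 0.29 (adjusted p = 0.0177) in PRC1CKO, a call lost without untreated replicate 2 or 3 or OHT-treated replicate 1 or 2, and 0.59 ± 0.29 (adjusted p = 0.212) in PRC1CPM. Without the gDNA-seq correction Fzd8 was not called in PRC1CKO, and Fzd3, Fzd4 and Fzd8 were called higher in PRC1CPM. With a block on the replicate number, Fzd8 was called higher in PRC1CPM. The log2 fold changes of Fzd2, Fzd3, Fzd9 and Fzd10 ran from 0.02 to 0.49 in PRC1CKO and from -0.06 to 0.44 in PRC1CPM, none passed in the fit of all libraries, Fzd2 was called higher in PRC1CKO without untreated PRC1CKO replicate 1 (0.72) and Fzd3 in PRC1CPM without OHT-treated PRC1CPM replicate 2 (0.64), and the sign for Fzd2 in PRC1CPM and for Fzd10 in PRC1CKO turned when the gDNA-seq correction was left out, and for Fzd10 also under TMM scaling.

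Secreted antagonists. Dkk2, Frzb, Wif1 and Sfrp5 were called higher in both lines, and none of the 9 antagonists tested was called lower. Over all rows tested, 16.5% were called higher in PRC1CKO and 13.1% in PRC1CPM, and 3.09% and 1.4% lower. Sfrp2 and Sfrp1, the most abundant of the class, did not pass. Dkk2, a co-receptor blocker that acts in the eye, had the highest fitted value of the class in PRC1CKO. Its normalised read counts in PRC1CKO were 2.98, 7.70 and 1.69 untreated and 65.1, 66.6 and 58.4 after OHT. The PRC1CPM counts were 5.11, 3.77 and 5.42 untreated and 73.4, 29.4 and 39.4 after OHT. No untreated library came near the OHT-treated ones, and the log2 fold changes were 3.83 ± 0.53 (adjusted p = 8.44e-08) and 2.98 ± 0.53 (adjusted p = 2.82e-05). Frzb, an SFRP family member named for cartilage and bone, came next in PRC1CKO. PRC1CKO counts of Frzb were 14.9, 3.08 and 5.07 untreated and 41.6, 53.7 and 55.0 after OHT. PRC1CPM counts of Frzb were 17.9, 7.54 and 0 untreated and 41.5, 37.1 and 43.8 after OHT. The groups were apart in each line, with log2 fold changes of 2.79 ± 0.63 (adjusted p = 0.000572) and 2.94 ± 0.63 (adjusted p = 0.000438), the latter being 1.72 without untreated PRC1CPM replicate 3, which had no read. Wif1, the Wnt inhibitory factor, rose in both lines. Wif1 counts in PRC1CKO were 35.7, 38.5 and 50.7 untreated and 154, 115 and 141 after OHT. Wif1 counts in PRC1CPM were 88.2, 24.5 and 56.9 untreated and 216, 111 and 166 after OHT. The libraries did not overlap in PRC1CKO or in PRC1CPM, with log2 fold changes of 1.70 ± 0.38 (adjusted p = 0.000429) and 1.65 ± 0.38 (adjusted p = 0.0009). Sfrp5 had 1.39 ± 0.34 (adjusted p = 0.00139) and 1.37 ± 0.34 (adjusted p = 0.00234), and its PRC1CPM call was lost without untreated replicate 2 (0.89).

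Sfrp2 and Sfrp1, secreted Frizzled-related proteins, had the most reads of the class in untreated PRC1CKO, at 188 and 87.8 per kilobase of gene body (752 and 765 per kilobase of exon). Sfrp2 had in PRC1CKO 1844, 1541 and 1129.7 untreated and 2036, 2432 and 1883 after OHT. Sfrp2 had in PRC1CPM 1295, 1442 and 1307 untreated and 1981, 1887 and 1676 after OHT. Its OHT-treated libraries lay above the untreated ones in each line, but the log2 fold changes of 0.51 ± 0.22 (adjusted p = 0.0937) and 0.45 ± 0.22 (adjusted p = 0.189) did not pass. Sfrp2 was called higher in PRC1CKO without untreated replicate 1 or with replicate 1 of all conditions left out, and in PRC1CPM without the gDNA-seq correction. Sfrp1 had in PRC1CKO 3486, 2981 and 3572 untreated and 2776, 3279 and 3297 after OHT. Sfrp1 had in PRC1CPM 2667, 2274 and 2508 untreated and 3402, 2357 and 3321 after OHT. The Sfrp1 groups overlapped in both lines, with log2 fold changes of -0.10 ± 0.20 (adjusted p = 0.826) and 0.27 ± 0.20 (adjusted p = 0.529). Dkk1, a direct Wnt target and head inducer, had 1.35 ± 0.52 (adjusted p = 0.0605) and 0.87 ± 0.52 (adjusted p = 0.358), Dkk3 0.26 ± 0.27 and 0.34 ± 0.27, and Sfrp4 -0.63 ± 0.28 and -0.63 ± 0.28. Under TMM scaling Sfrp4 was called lower in both lines, and Dkk1 was called higher in PRC1CKO in the fit of that line alone and in 5 of 12 fits that left out 1 library (untreated PRC1CKO replicate 1 or 2, OHT-treated PRC1CKO replicate 2, or untreated PRC1CPM replicate 1 or 2). With a block on the replicate number, Sfrp4 was called lower in both lines and Dkk1 higher in PRC1CKO. Dkk4 had 2 reads in all in each untreated condition, 2 after OHT in PRC1CKO and 4 after OHT in PRC1CPM, too few to compare.

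TCF/LEF factors and Axin2. None of the 4 TCF/LEF factors was called in either line in the fit of all libraries without a block on the replicate number. Tcf7 (TCF1), an activating factor in ESCs, had 36.4 normalised reads per kilobase of gene body in untreated PRC1CKO, and Tcf7l1 (TCF3), the main repressing factor there, had 21.7. Per kilobase of exon the order was the reverse, with 422 for Tcf7 and 1226 for Tcf7l1. Tcf7 counts in PRC1CKO were 1427, 885 and 961 untreated and 1292, 1142 and 1218 after OHT. Tcf7 counts in PRC1CPM were 1905, 1539 and 1704 untreated and 2220.1, 1535 and 1914 after OHT. The treated and untreated libraries overlapped, with log2 fold changes of 0.19 ± 0.22 (adjusted p = 0.672) and 0.13 ± 0.22 (adjusted p = 0.858). Tcf7l1 counts in PRC1CKO were 4189, 3750.1 and 2659 untreated and 3160.2, 2031 and 2912 after OHT. Tcf7l1 counts in PRC1CPM were 3797, 3646 and 3393 untreated and 3280.0, 2606 and 2397 after OHT. The groups overlapped in PRC1CKO and lay apart in PRC1CPM, with log2 fold changes of -0.39 ± 0.21 (adjusted p = 0.241) and -0.40 ± 0.21 (adjusted p = 0.27), and 8430 bases of Tcf7l1 are shared with Gm15401 on the other strand. Lef1 had 0.66 ± 0.26 (adjusted p = 0.0695) and 0.32 ± 0.26 (adjusted p = 0.584), and Tcf7l2 -0.07 ± 0.22 and 0.30 ± 0.22. Lef1 was called higher in PRC1CKO when untreated PRC1CKO replicate 1, OHT-treated PRC1CKO replicate 2, untreated PRC1CPM replicate 1 or 2, or OHT-treated PRC1CPM replicate 1 was left out, with replicate 1 of all conditions left out, and in the fit of that line alone. With a block on the replicate number, limma also called Lef1 higher in PRC1CKO (adjusted p = 4.33e-05). Axin2 rose in both lines. Its normalised read counts in PRC1CKO were 648, 312 and 331 untreated and 1231, 799.7 and 857 after OHT. Its counts in PRC1CPM were 595, 474 and 358 untreated and 1432, 741 and 1033 after OHT. Each OHT-treated library was above each untreated one, with log2 fold changes of 1.22 ± 0.27 (adjusted p = 0.000435) and 1.15 ± 0.27 (adjusted p = 0.00138), and the call held in each of the 12 fits that left out 1 library.

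The lines were compared directly in 3 ways. The interaction of line and treatment tests whether the change after OHT differed, and none of the 46 genes was called, by limma at an adjusted p under 0.05, against 0.0236% of all rows. No gene had an unadjusted p under 0.05, and edgeR and DESeq2 also called none. With a block on the replicate number, the interaction was called higher for 0.46% of all rows and lower for 1.45%. In the fit without that block the estimates were wide. Wnt5a had -1.09 ± 0.63 (SE), and Rspo2 had 1.43 ± 0.86. These data therefore do not show that the lines respond alike, gene by gene. The log2 fold change was larger in PRC1CKO for 29 of the 46 genes and 53.3% of all rows, a balance that turned without the gDNA-seq correction (9 genes and 10.8%) and ran from 19 to 35 genes with 1 library left out. OHT-treated PRC1CPM against OHT-treated PRC1CKO gave no call among the 46, against 1.47% of all rows (1.25% higher and 0.218% lower in PRC1CPM), 3 unadjusted p under 0.05 and a lowest adjusted p of 0.179 (limma, Tcf7). Blocking on the replicate number gave 2 higher (Wnt16 and Tcf7) and 1 lower (Wnt6) in PRC1CPM, against 6.68% and 1.37% of all rows. Untreated PRC1CPM against untreated PRC1CKO gave 1 call, against 2.69% of all rows (2.21% higher and 0.478% lower in PRC1CPM), and 12 genes had an unadjusted p under 0.05. The log2 fold change was above 0 for 32 of the 46 genes and 67.9% of all rows, but for 18 genes and 31.9% without the gDNA-seq correction, and for 23 to 39 genes with 1 library left out. The gene called was Fzd7, lower in untreated PRC1CPM at 3735 ± 529.9 than in untreated PRC1CKO at 6214 ± 664 normalised reads (SD, n = 3), with a log2 fold change of -0.74 ± 0.20 (adjusted p = 0.0289). The call was lost when replicate 2 or 3 of either untreated group was left out, and with untreated PRC1CKO replicate 1 left out, 6 other genes (Wnt3, Wnt5b, Wnt11, Wnt16, Fzd2 and Tcf7) were called higher in PRC1CPM, in a fit in which 8.81% of all rows were called higher. The same block gave 8 higher (Fzd2, Tcf7, Wnt3, Wnt5b, Wnt7a, Wnt9b, Wnt11 and Wnt16) and 3 lower (Fzd7, Tcf7l2 and Wnt6) in untreated PRC1CPM, against 9.63% and 1.49% of all rows.

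**Figure D5:**
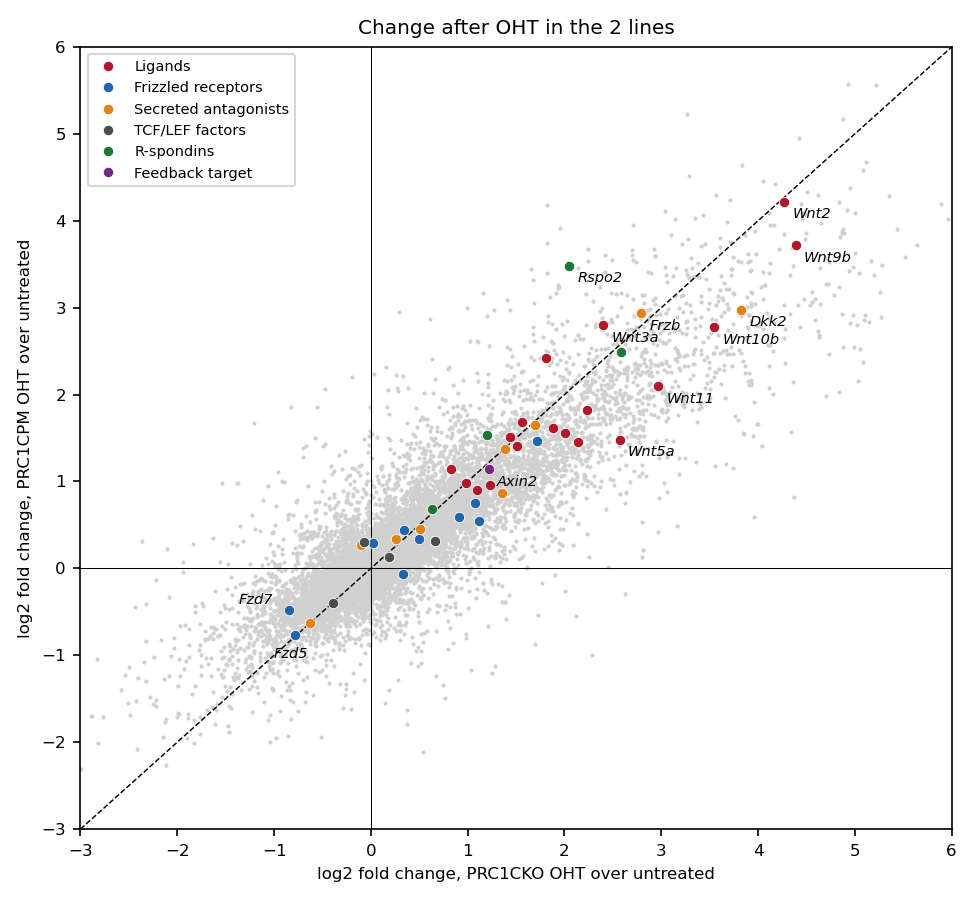
Log2 fold change after OHT in PRC1CPM (y axis) against PRC1CKO (x axis). Grey points are the 16940 rows tested, of which 12 lie outside the axes, coloured points are the 46 tested Wnt pathway genes by role, 12 of them named, and the dashed line marks equal change. Of the coloured points, 29 lie below the dashed line (9 without the gDNA-seq correction), and Rspo2 lies furthest above it.

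Other genes of the pathway were taken from a list of 67, of which 63 were tested, 20 were called higher and 0 lower in PRC1CKO, and 15 higher and 0 lower in PRC1CPM (limma, with 16.5% and 13.1% of all rows higher). Of 11 co-receptors and other receptors, Ror1, Ror2, Lgr5, Lgr6 and Kremen2 were higher in PRC1CKO and the same but Ror2 in PRC1CPM, whereas Lrp5 and Lrp6, the Wnt co-receptors, had log2 fold changes between -0.01 and 0.17. Of 4 tested ligand-processing genes, Wls, which carries Wnts to the surface, had 1.02 ± 0.26 (adjusted p = 0.0022) and 0.73 ± 0.26 (adjusted p = 0.0469). Trabd2b (Tiki2), a protease that inactivates Wnts, went from 87.6 ± 31.9 to 776 ± 97.6 normalised reads in PRC1CKO and from 97.5 ± 61.2 to 769.7 ± 58.9 in PRC1CPM, with log2 fold changes of 3.20 ± 0.31 (adjusted p = 8.66e-12) and 3.14 ± 0.31 (adjusted p = 5.79e-11). None of the 13 transducers and destruction complex genes, among them Ctnnb1, Apc and Gsk3b, was called in either line. Of 9 intracellular and membrane inhibitors, Znrf3, Nkd1 and Apcdd1 were called higher in PRC1CKO and Nkd1 in PRC1CPM. Of 11 known targets, T, Sp8, Cdx1, Nkd1 and Lgr5 were called higher in both lines, and Sp5, Ccnd1, Myc, Ascl2, Tnfrsf19 and Notum in neither. Of the 9 nuclear cofactors tested, Tle2 was higher in both lines and Bcl9l in PRC1CKO. Of 7 planar polarity genes, Celsr2, Prickle1 and Prickle2 were higher in both. Of 2 tested secreted inhibitors of other families, Draxin was higher in both lines and Sost in PRC1CKO. The pathway list was chosen with earlier results of these data known.

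Markers of other cell types moved as well, and their part in the Wnt gene results was not tested. Over all rows tested, 16.5% were called higher and 3.09% lower in PRC1CKO, and 13.1% and 1.4% in PRC1CPM. Of 7 primitive endoderm markers, 5 were called higher in PRC1CKO and 7 in PRC1CPM, and their sum went from 1157 ± 588 to 3623 ± 666 normalised reads in PRC1CKO and from 740.2 ± 67.9 to 1949 ± 393 in PRC1CPM, with Pdgfra the most abundant. Of 6 mesoderm and primitive streak markers, 5 were tested and 2 (T and Eomes) were higher in PRC1CKO and 3 in PRC1CPM, with sums from 227 ± 119 to 478 ± 105 and from 244 ± 88.8 to 497 ± 172, led by Eomes. Of 6 neural markers, 4 were higher and 1 (Tubb3) lower in PRC1CKO and 2 higher in PRC1CPM, with sums from 1445 ± 572 to 2219 ± 177 and from 1636 ± 146 to 2042 ± 592, led by Nes. Of 4 tested trophoblast markers, 3 were higher and 1 (Tfap2c, the most abundant) lower in PRC1CKO and 2 higher in PRC1CPM, with sums from 1631 ± 218 to 1523 ± 212 and from 1204 ± 105 to 1845 ± 415. The 8 ESC markers gave 1 call, Sox2, lower in PRC1CKO with a log2 fold change of -0.89 ± 0.20 (adjusted p = 0.00051) and -0.45 ± 0.20 (adjusted p = 0.136) in PRC1CPM. Of these 8, 1 lay above 0 in PRC1CKO (median log2 fold change -0.306) and 3 in PRC1CPM (median -0.146). The fibroblast markers, led by Col1a1, summed to 5008, 1517 and 2109 normalised reads in untreated and 3053, 2141 and 2590.0 in OHT-treated PRC1CKO. In PRC1CPM they summed to 13577, 2949.7 and 3855 untreated and 13548, 3726 and 5181 after OHT, so replicate 1 was the highest in each condition. Lum was at 0 in untreated PRC1CKO and OHT-treated PRC1CPM. Of the 4 fibroblast markers tested, 1 (Postn) was lower in PRC1CKO and none was called in PRC1CPM. Between the lines, Gata6 and Pdgfra (primitive endoderm) were lower and Col1a1 higher in OHT-treated PRC1CPM than in OHT-treated PRC1CKO, with log2 fold changes of -1.78, -1.04 and 1.44. In the untreated cells, Sox7 (primitive endoderm), Sox1 (neural) and Tfcp2l1 (ESC) were lower and Col1a2 (fibroblast) higher in PRC1CPM, with -2.26, -1.40, -0.88 and 1.38. Over all rows, 1.25% were called higher and 0.218% lower in OHT-treated PRC1CPM, and 2.21% and 0.478% in untreated PRC1CPM.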

How the data were processed

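RNA was measured by spike-in calibrated total RNA-seq in 12 libraries, 3 replicates in each of 4 conditions, and p-values measure the spread between these libraries. The authors removed rDNA reads with Bowtie 2, aligned the rest to the joined mm10 and dm6 genomes with STAR, kept uniquely aligned reads without PCR duplicates, and counted reads over gene bodies. The deposited signal is the read count divided by 1 DESeq2 size factor per library, taken from Drosophila reads and corrected by gDNA-seq. The deposited columns of the authors' own comparisons (fold changes and p-values) were not used, and the 12 gDNA libraries were not analysed here. Whole reads were recovered for 100% of values (within 0.02 of a whole number).

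Differences were tested with limma 3.58.1 (R 4.3.3) on log2(signal + 1), with 1 mean per condition over all 12 libraries, a trended variance and Benjamini-Hochberg adjustment over the 16940 rows in which 3 or more libraries held 10 or more reads. Calls required adjusted p below 0.05 together with more than 1.5-fold change (for the interaction, adjusted p only). On the recovered reads, edgeR 4.0.16 called 30 of the 46 tested genes in PRC1CKO and 26 in PRC1CPM, and DESeq2 1.42.0 was an alternative. Deviations of same-numbered libraries from their condition means correlated at a mean of 0.205 (18 pairs), against at most 0.0275 for other pairs. The 3 pairs were all over 0.1 between the untreated lines (0.186 to 0.377), between the OHT-treated lines (0.14 to 0.225) and within PRC1CPM (0.246 to 0.438), so blocked values stand beside those comparisons. In PRC1CKO the lowest of the 3 was 0.0988, and the genes that a block added there are also named. The pairing comes from the data and not from the labels. The scripts were tested on simulated data. Other alternatives were TMM scaling, no gDNA-seq correction, no filter, a fold change above 2, a pseudocount of 0.1, a block for replicate number, fits of 1 line only, and fits omitting 1 library. Leaving out replicate 1 of all conditions was chosen after seeing the data. Genes with a value per library were taken by rule from each role, by size of change among calls and by level. The members and lists were chosen with earlier results of these data known. Counting intervals and floors cover counting error only. Tables were handled with Python 3.11.15 and pandas 2.3.3, and promoter sequences are from RefSeq.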

Additional observations from a re-analysis of the deposited data

How the results depend on the processing

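All counts are of the 46 tested Wnt pathway genes. Shares of all rows tested are in parentheses. Called lower in PRC1CKO after OHT (2 genes, 3.09%), 1 was left (2.15%) without replicate 1 of all conditions, a setting chosen after seeing the data, and 0 (1.6%) at a fold change above 2. Called lower in PRC1CPM (1 gene, 1.4%), the count was 3 under TMM (3.51%), 0 without the gDNA-seq correction (0.401%), 0 at a fold change above 2 (0.738%), and 0 to 1 with 1 library left out (0.718% to 2.01%). Between the OHT-treated lines, TMM gave 1 lower in PRC1CPM (1.54%, against 0.218%). Between the untreated lines (2.21% higher, 0.478% lower), TMM gave 1 higher (4.4%) and 3 lower (1.8%), no gDNA-seq correction 2 lower (0.874%), a fold change above 2 gave 0 lower (0.254%), leaving out replicate 1 of all conditions gave 4 higher (4.29%), and leaving out 1 library gave 0 to 6 higher (1.01% to 8.81%) and 0 to 1 lower (0.272% to 0.624%). The numbers of genes called higher after OHT stayed within 1.5 times the reported counts.

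The replicate block gave 2 lower in PRC1CPM, 2 higher and 1 lower between the OHT-treated lines (6.68% and 1.37% of all rows), and 8 higher and 3 lower between the untreated lines (9.63% and 1.49% of all rows). All 30 calls in PRC1CKO and 26 in PRC1CPM after OHT were kept under it, and it added Dkk1, Lef1, Rspo4, Sfrp4 and Wnt16 in PRC1CKO (20.3% of all rows higher and 4.86% lower) and 6 genes in PRC1CPM.

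In PRC1CKO, the median log2 fold change of the Frizzled receptors was 0.298 under TMM and 0.262 without the gDNA-seq correction, that of the antagonists 0.818 and 0.778, and per kilobase of exon the summed ratio was 0.79 for Frizzled receptors and 2.13 for R-spondins. With 1 library left out, PRC1CKO medians ran from 1.73 to 2.42 for ligands, 0.322 to 0.667 for Frizzled receptors, 0.526 to 1.12 for antagonists, 1.03 to 1.55 for Axin2 and 1.04 to 1.56 for all 48 genes. Leaving out the gDNA-seq correction moved the median of all rows from 0.0996 to 0.394 in PRC1CPM and from 0.115 to -0.0368 in PRC1CKO.

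Signs turned only for genes that did not pass. Fzd2 in PRC1CPM was 0.236 without the gDNA-seq correction and -0.25 to 0.092 with 1 library left out. Fzd10 in PRC1CKO was -0.0163 by edgeR, -0.0166 by DESeq2, -0.102 under TMM, -0.137 without the gDNA-seq correction and -0.175 to 0.271 with 1 library left out. With 1 library left out, Dkk3 in PRC1CKO ran from -0.0197 to 0.519 and Tcf7l2 from -0.227 to 0.117. Sfrp1 in PRC1CKO was 0.0109 without replicate 1 of all conditions. The causes were not tested.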
